A study of Mus musculus with 4 samples.

Results

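The genes described here make cholesterol and fatty acids or control that synthesis. They were chosen by name from a list of 32 genes, of which Msmo1 is filed on the array under its older symbol Sc4mol. The array carried 45 probes for them among 55681 gene probes, and 42 of these probes passed the filter, which asks that both arrays of a group read well above background. Of the 32 genes 31 could be tested, among 17568 genes tested in all. Scd1, a stearoyl-CoA desaturase, was not well above background on any array. The cells were 32D-EpoR, from a mouse line of early myeloid cells that needs interleukin-3, with a name that denotes an added receptor for erythropoietin (Epo), the hormone of red cell formation. All cultures were moved from medium conditioned by WEHI cells, a source of interleukin-3, into medium with serum alone. The treated group then received Epo at 10 U/ml, and the control group received none. How long Epo acted, and how the receptor was introduced, are not given in the sources used here. There were 2 arrays a group, 1 from each of 2 experiments on cells of different passages, so the number of arrays limits every value and the results hold for a single cell line.

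Cholesterol is built from acetyl-CoA through mevalonate, the isoprenoid diphosphates and squalene, which is closed to lanosterol and trimmed to cholesterol in the endoplasmic reticulum. Fatty acids are built from the same acetyl-CoA by acetyl-CoA carboxylase and fatty acid synthase, and are then lengthened by elongases and given double bonds by desaturases. The transcription factors SREBP-1 and SREBP-2, encoded by Srebf1 and Srebf2, switch on much of both pathways when the SCAP protein escorts them out of the endoplasmic reticulum, and the INSIG proteins hold SCAP back when sterols are plentiful. Growing blood cells need both products for new membranes.

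Levels are given as log2 scaled signal, the log2 of the processed probe intensity after each array was set to a common 75th percentile. In processed intensity, the percentile of the control arrays was 224 and 250 and that of the Epo arrays was 347 and 454. The median log2 change of all genes tested was -0.06 after scaling and 0.68 without it, so each change below is relative to the other genes on the array. Fewer cells and less RNA per cell cannot be told apart in such bulk samples. Fam210b, the Epo target that the series title names, rose by 1.66 ± 0.11 (SE) in log2 units, with an adjusted p of 0.0046 by limma.

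Most of these genes, 20 of 31, did not pass the test. Limma called 6 of 31 higher (19.4%), against 13.1% of all 17568 genes, and 5 lower (16.1%), against 14.2% of all genes. In either direction this was 35.5% of the 31 genes, against 27.3% of all genes, at an adjusted p of 0.05. The share called lower was near that of all genes. These counts depend on the processing. Without scaling 21 were higher and 0 lower, also at an unadjusted p under 0.05, against 46.9% and 2.08% of all genes. With dim probes kept limma called 0 of 32 genes and 0 of all 36408, with 7 of the 32 higher and 4 lower at an unadjusted p under 0.05. The largest rise was that of Fasn, fatty acid synthase, at 3.67-fold. Msmo1, Hsd17b7, Cyp51 and Sqle, enzymes that process squalene and lanosterol, rose by 1.59-fold to 2.14-fold, and Ggps1, which makes geranylgeranyl diphosphate, rose by 1.42-fold. The falls were those of Acat2 and Pmvk in the mevalonate pathway and of the desaturase genes Fads1, Fads2 and Scd2. All 31 genes were well above background on all 4 arrays, so none passed the filter through its brighter group alone. The arrays with Epo lay wholly above those without in 17 of the 31 genes (54.8%) and wholly below in 8 (25.8%), against 30.4% and 38.4% of all genes. With the replicate number as a block, 12 genes rose and 5 fell, against 19.9% and 23.2% of all genes. The 6 genes that passed with the block and not without it are given with their groups.

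**Figure D1:**
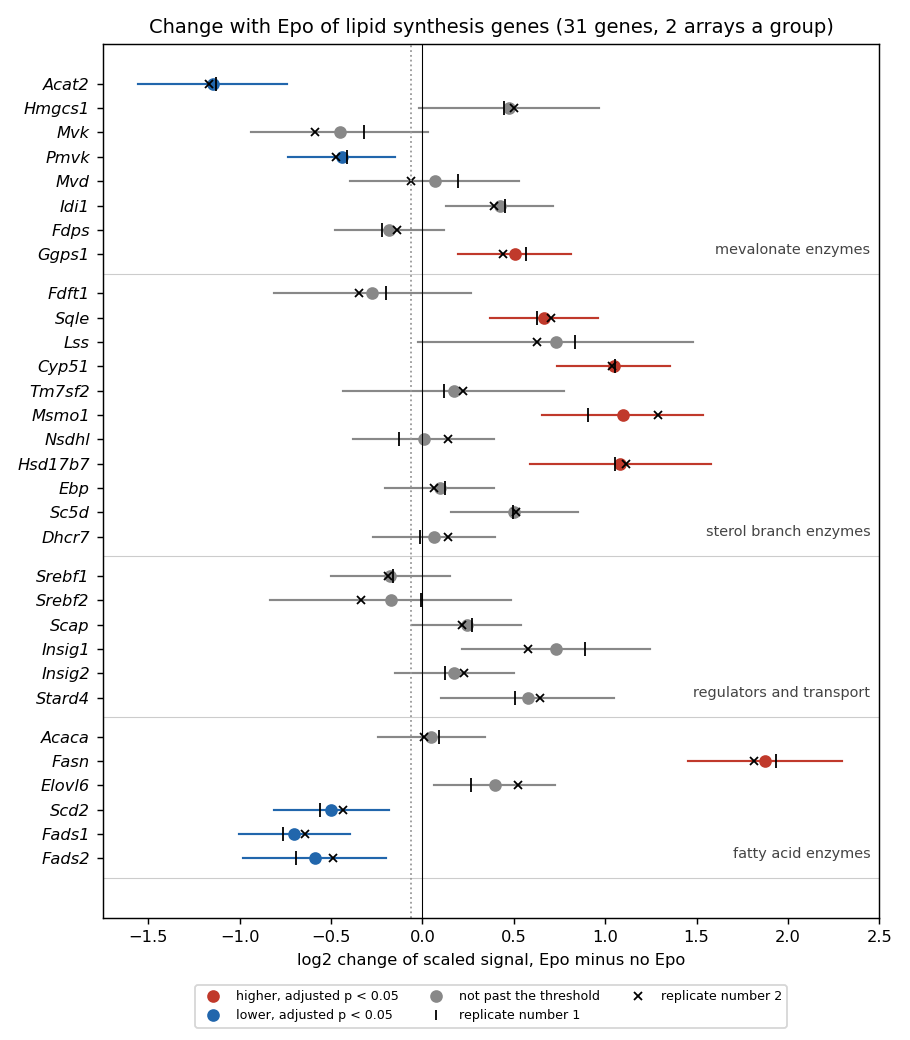
Log2 change of scaled signal with Epo against no Epo (x axis) for the 31 tested genes (y axis), in 4 groups by role. Points are limma estimates from 2 arrays a group, bars are 95% confidence intervals, ticks and crosses are the differences within replicate numbers 1 and 2, and the dotted line is the median of all genes at -0.06. Fasn stands farthest to the right at 1.87 and Acat2 farthest to the left at -1.15.

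Promoter sequence was examined as a description, and its relation to the changes with Epo was not tested. RefSeq promoter windows on GRCm38.p6 were matched by symbol for 25 of the 32 genes, and the 250 bases before each annotated start were searched on both strands. Sqle, which rose, and Fads1 and Scd2, which fell, had no matched window. Neither did Fdps, Fdft1, Scd1 and Stard4. Shown here are 5 genes that rose, 2 that fell and Hmgcs1. Of the 25 genes Hmgcs1 alone matched TCACNCCAC, the letters searched for the sterol regulatory element, an SREBP site. Other forms of this element were not searched, so a window without a match may still hold one. The Fasn window lies at chr11:120824548-120824797 on the minus strand. Those of Msmo1, Hsd17b7 and Cyp51 lie at chr8:64733579-64733828, chr1:169969206-169969455 and chr5:4104698-4104947, all on the minus strand. Those of Ggps1, Acat2 and Fads2 lie at chr13:14063489-14063738, chr17:12960726-12960975 and chr19:10101504-10101753, also on the minus strand, and that of Hmgcs1 at chr13:119690101-119690350 on the plus strand. Capitals mark the TCACNCCAC match and each CCAAT box, the site of the factor NF-Y, which appears as ATTGG when it lies on the other strand. Pmvk, which also fell, is not shown, and 1 of its windows held a CCAAT box.
Fasn: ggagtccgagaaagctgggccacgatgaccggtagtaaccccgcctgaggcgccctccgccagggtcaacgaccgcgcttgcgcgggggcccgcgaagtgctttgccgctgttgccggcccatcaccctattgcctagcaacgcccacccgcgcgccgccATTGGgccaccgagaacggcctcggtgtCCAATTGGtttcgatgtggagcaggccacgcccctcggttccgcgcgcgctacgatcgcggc
Msmo1: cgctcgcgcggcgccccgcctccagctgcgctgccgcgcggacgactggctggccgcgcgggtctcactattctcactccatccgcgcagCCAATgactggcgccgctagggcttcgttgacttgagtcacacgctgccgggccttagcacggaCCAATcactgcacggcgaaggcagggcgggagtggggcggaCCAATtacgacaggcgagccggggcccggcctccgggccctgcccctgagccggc
Hsd17b7: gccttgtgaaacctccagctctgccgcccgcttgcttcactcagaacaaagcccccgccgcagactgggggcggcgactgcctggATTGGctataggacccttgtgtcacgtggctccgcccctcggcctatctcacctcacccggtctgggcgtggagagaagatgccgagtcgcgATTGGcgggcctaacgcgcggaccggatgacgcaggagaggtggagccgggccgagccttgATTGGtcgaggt
Cyp51: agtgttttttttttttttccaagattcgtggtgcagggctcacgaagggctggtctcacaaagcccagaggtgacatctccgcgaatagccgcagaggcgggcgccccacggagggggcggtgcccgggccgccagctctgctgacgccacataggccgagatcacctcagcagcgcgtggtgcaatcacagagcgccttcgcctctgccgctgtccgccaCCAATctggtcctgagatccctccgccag
Ggps1: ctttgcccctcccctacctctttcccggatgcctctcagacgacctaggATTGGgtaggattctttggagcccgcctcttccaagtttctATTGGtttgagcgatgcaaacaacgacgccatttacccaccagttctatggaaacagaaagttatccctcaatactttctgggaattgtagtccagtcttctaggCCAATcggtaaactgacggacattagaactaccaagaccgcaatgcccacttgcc
Hmgcs1: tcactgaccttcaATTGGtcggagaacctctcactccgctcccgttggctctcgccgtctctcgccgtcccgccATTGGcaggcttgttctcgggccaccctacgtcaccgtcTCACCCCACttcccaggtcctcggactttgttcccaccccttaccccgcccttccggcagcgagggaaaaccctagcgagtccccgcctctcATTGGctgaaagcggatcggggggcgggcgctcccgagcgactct
Acat2: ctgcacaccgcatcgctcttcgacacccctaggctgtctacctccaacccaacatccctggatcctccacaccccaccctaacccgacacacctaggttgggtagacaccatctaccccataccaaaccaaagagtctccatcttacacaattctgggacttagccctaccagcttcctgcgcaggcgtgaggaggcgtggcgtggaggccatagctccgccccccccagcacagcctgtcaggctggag
Fads2: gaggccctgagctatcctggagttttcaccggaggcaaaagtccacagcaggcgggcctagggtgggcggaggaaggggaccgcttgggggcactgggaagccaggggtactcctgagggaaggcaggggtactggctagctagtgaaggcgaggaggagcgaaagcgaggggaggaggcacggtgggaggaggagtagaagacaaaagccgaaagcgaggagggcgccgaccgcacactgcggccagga

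The CCAAT letters stood in the windows of 15 of 16 sterol pathway enzymes (93.8%) and of 1 of 4 fatty acid enzymes (25%), against 37.5% of 27025 genes and 33.8% of 32851 windows of the same length. The 16 include Ggps1, which leads away from sterols. Among the sterol pathway enzymes only Acat2, which fell, had none in its window, whereas Pmvk, which also fell, had a match. Among the 4 fatty acid enzymes with a window (Acaca, Elovl6, Fads2 and Fasn) only Fasn, which rose, had the CCAAT letters. Of its 3 matches those at -62 to -58 and -59 to -55 from the start overlap. Fads1 and Scd2, which fell, had no window to search. The windows of Msmo1 and Hsd17b7 held 3 matches each and that of Cyp51 held 1. Sterol pathway enzymes that were not called held matches too, with 5 in Mvk (log2 change -0.45) and 3 in Hmgcs1 (0.47). Idi1, Mvd, Nsdhl, Ebp and 1 window of Dhcr7 held 2 each, at changes of 0.42, 0.07, 0.006, 0.09 and 0.06. Whether a match goes with a rise was not tested. GC boxes (GGGCGG), sites of Sp1-type factors, stood in 14 of 16 sterol pathway enzymes (87.5%) and 1 of 4 fatty acid enzymes (25%), against 35.4% of genes and 32.7% of windows. The TCACNCCAC letters of the sterol regulatory element were found in 1 of 25 genes (4.0%), at -137 to -129 of Hmgcs1. This compares with 1.22% of genes and 1.05% of windows, and other forms of the element were not searched. The E-box CACGTG was found in 5 of 25 genes (20.0%), against 6.86% of genes and 6.02% of windows. The STAT site TTCNNNGAA, the core that STAT proteins bind, was found in Ggps1 and Ebp, 2 of 25 genes (8.0%), against 8.13% of genes and 7.02% of windows. A match is a run of letters and was not tested for binding, and genes with several annotated starts had more windows in which to match. The shares of all genes and windows also cover genes not detected on these arrays, whereas 31 of the 32 listed genes were tested. Shares among detected genes alone were not counted.

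**Figure D2:**
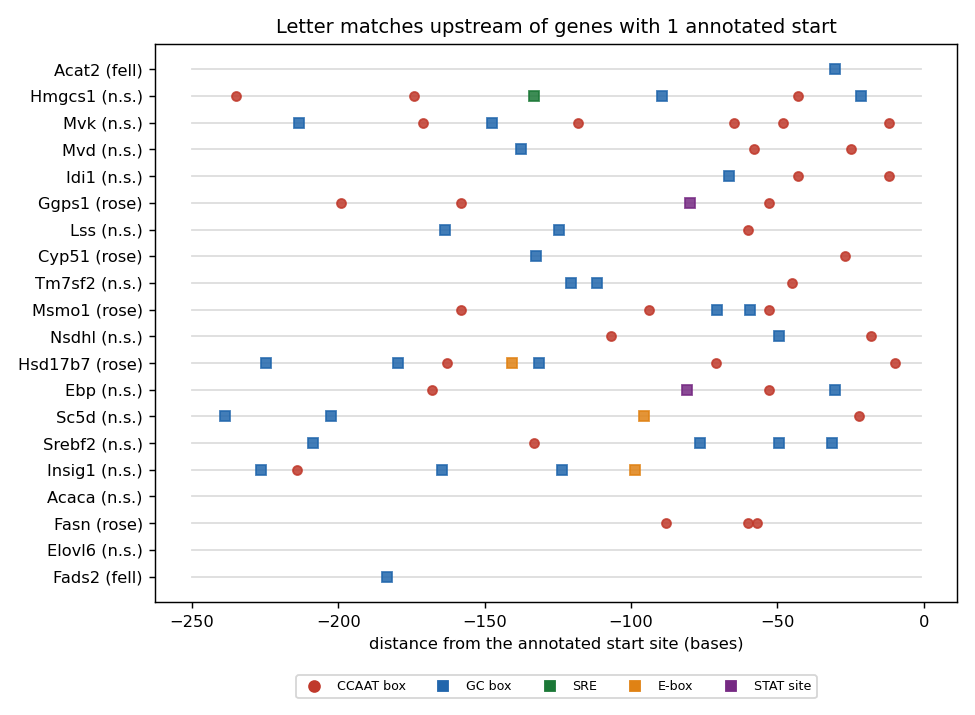
Positions of letter matches (symbols) from 250 bases upstream to the annotated start (x axis, bases) for the 20 genes with a single RefSeq start (y axis), with each gene's call under Epo in brackets (n.s., not past the threshold). Red circles, CCAAT boxes, mark every sterol pathway enzyme shown except Acat2, and Fasn alone among the 4 fatty acid enzymes.

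Of the 11 enzymes from squalene synthase to cholesterol, 4 rose (36.4%) and 0 fell by limma, against 13.1% and 14.2% of all genes. At an unadjusted p under 0.05, 5 were higher and 0 lower, where 3380 and 4127 of all 17568 genes were. Their median log2 change was 0.50, against -0.06 for all genes. Msmo1, a methylsterol oxidase, read 11.30 and 10.92 log2 units without Epo and 12.20 and 12.21 with Epo. Both arrays with Epo stood above both without, a change of 1.09 ± 0.17 (SE) with an adjusted p of 0.015. Hsd17b7, the ketoreductase of the same demethylation steps, read 7.78 and 8.08 without Epo and 8.84 and 9.19 with Epo. Its groups did not overlap, and its change of 1.08 ± 0.19 (SE) had an adjusted p of 0.020, or 0.058 with a change of 0.91 without replicate 2 of the Epo group. Cyp51, the lanosterol demethylase, read 7.21 and 7.30 without Epo and 8.26 and 8.34 with Epo. The spread within each group was small beside its change of 1.05 ± 0.12 (SE, adjusted p 0.0085). Sqle, squalene epoxidase, a rate-controlling oxygen-using step, read 12.15 and 12.08 without Epo and 12.78 and 12.78 with Epo. It rose by 0.67 ± 0.11 (SE, adjusted p 0.019). Dropping control replicate 2 gave 0.63 with an adjusted p of 0.066, and dropping Epo replicate 1 or 2 gave 0.66 and 0.67 with adjusted p of 0.099 and 0.093. The probes lie at chr8:67196982-67197041 for Msmo1, chr1:171883182-171883241 for Hsd17b7, chr5:4081471-4081530 for Cyp51 and chr15:59162688-59162747 for Sqle in the build mm9, and whether these stretches are coding was not analysed here.

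The other 7 enzymes of this branch did not pass the threshold. Lss, which closes squalene epoxide to lanosterol, read 7.99 and 8.65 without Epo and 8.82 and 9.27 with Epo. Every array with Epo was above every array without, but the arrays of each group lay far apart, and the change of 0.73 had a 95% interval from -0.02 to 1.48. Its adjusted p was 0.125, against 0.020 with the replicate block. The change was 0.40 (adjusted p 0.277) on dropping control replicate 1, 1.06 (0.045) on dropping control replicate 2, and 0.95 (0.108) and 0.51 (0.327) on dropping Epo replicate 1 or 2. Sc5d, a sterol desaturase near the end of the pathway, changed from 10.62 and 10.46 to 11.12 and 10.97. Its groups did not overlap, and its change of 0.50 ± 0.13 (SE) had an adjusted p of 0.052. It passed with the block (0.023), with the normexp background (0.60, 0.017) and with probes averaged over the genes (0.0499), and in none of the 4 fits that left out an array. Dhcr7, the reductase of the last step, lay at 7.98 and 8.01 without Epo and at 7.97 and 8.15 with Epo, which overlap. Its difference of 0.06 had a 95% interval from -0.27 to 0.40. The sterol isomerase Ebp and the sterol dehydrogenase Nsdhl differed by 0.09 and 0.006, with intervals from -0.20 to 0.39 and from -0.38 to 0.39. The sterol reductase Tm7sf2 differed by 0.17 (-0.43 to 0.78). Fdft1, squalene synthase and the entry to the branch, differed by -0.27 (-0.81 to 0.27) and was the 1 member of the branch below 0, although it lay at 0.47 without scaling.

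**Figure D3:**
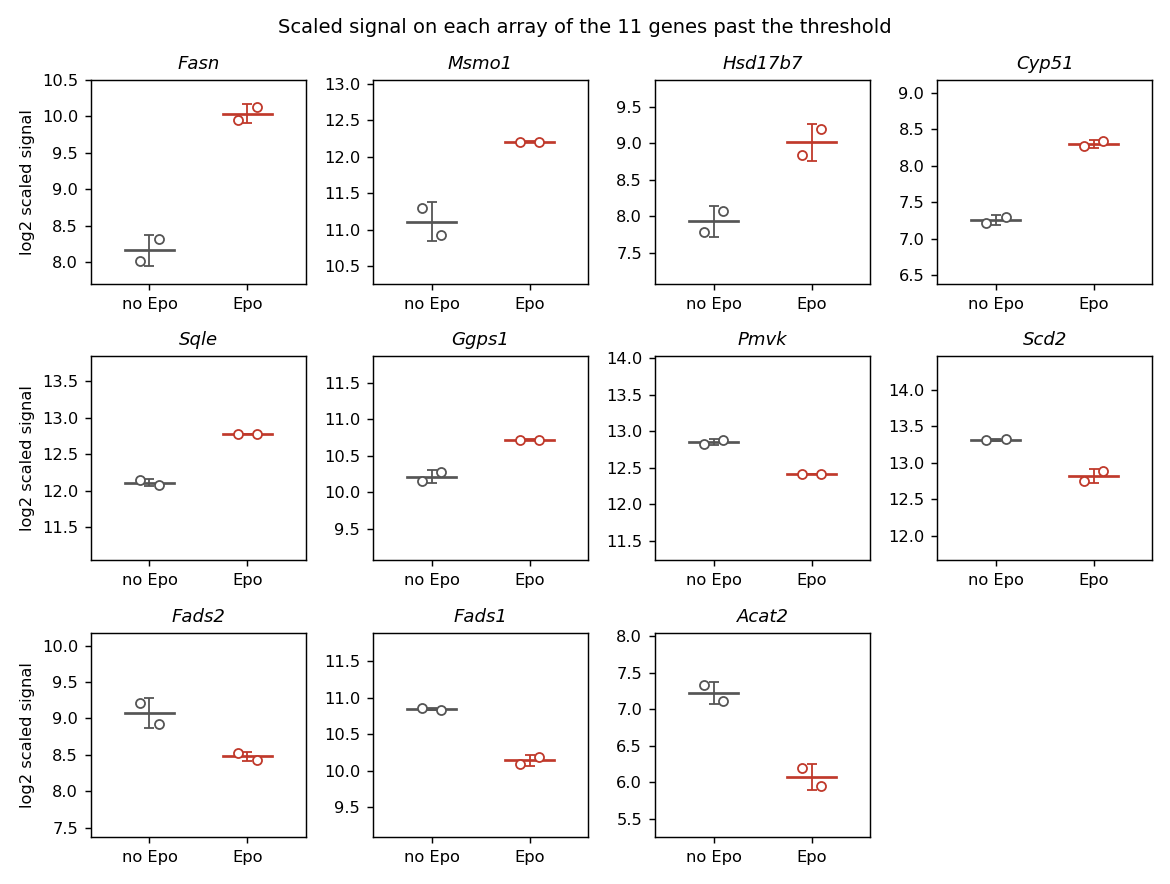
Log2 scaled signal (y axis) on each of the 4 arrays (open circles) for the 11 genes past the threshold, in order of their change. Lines are means and bars are the SD of 2 arrays, grey without Epo and red with Epo, and every panel spans the same number of log2 units. The 2 groups do not overlap in any panel.

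Of the 8 enzymes listed as the mevalonate group, 1 rose (12.5%) and 2 fell (25%), against 13.1% and 14.2% of all genes. The gene that rose, Ggps1, lies on a branch away from sterols. None of the others, which stand before squalene synthase, was called higher. The median of the 8 was -0.06, that of all genes. Acat2, the cytosolic thiolase that joins acetyl-CoA units, read 7.33 and 7.12 without Epo and 6.20 and 5.95 with Epo. Its fall by 1.15 ± 0.15 (SE) on the log2 scale, or 2.22-fold, had an adjusted p of 0.012, and it lay at -0.40 without scaling (adjusted p 0.276). The mouse genome holds a related gene, Acat3, and whether the probe (chr17:13136482-13136541, mm9) also reads it was not tested. Pmvk, phosphomevalonate kinase, read 12.82 and 12.88 without Epo and 12.41 and 12.41 with Epo. Its fall by 0.44 ± 0.11 (SE) was close to the threshold at an adjusted p of 0.048 and turned to 0.30 without scaling. With 1 array left out in turn its adjusted p ran from 0.110 to 0.224, at changes from -0.47 to -0.41, and with the normexp background it was 0.075 at -0.31. Ggps1, which leads away from sterols to the lipid tails of prenylated proteins, read 10.15 and 10.27 without Epo and 10.72 and 10.71 with Epo. It rose by 0.51 ± 0.12 (SE, adjusted p 0.039), with an adjusted p from 0.083 to 0.183 when any of the 4 arrays was left out, at changes from 0.45 to 0.56. The call was also lost with the percentile over detected probes (0.38, adjusted p 0.078) and with quantile normalization (0.41, 0.072).

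Hmgcs1 and Idi1 were higher on both arrays with Epo without passing the threshold. Hmgcs1, the synthase that makes HMG-CoA, read 11.88 and 11.53 without Epo and 12.32 and 12.03 with Epo. The difference of 0.47 ± 0.19 (SE) was 0.45 and 0.50 within replicate numbers 1 and 2, with an adjusted p of 0.127. It passed with the replicate block (0.026) and with the normexp background (0.60, 0.031), whereas dropping control replicate 2 lowered it to 0.30 (0.357). Idi1, the isomerase of the isoprenoid unit, read 12.71 and 12.74 without Epo and 13.16 and 13.13 with Epo, a difference of 0.42 ± 0.11 (SE, adjusted p 0.052). It passed with the block (0.031) and with the normexp background (0.55, 0.016), and in none of the 4 fits that left out an array. Mvk, mevalonate kinase, lay lower on both arrays with Epo at -0.45 (95% interval -0.94 to 0.03), which was -0.24 on dropping control replicate 2 and -0.27 with the normexp background. Fdps, which makes farnesyl diphosphate, lay at -0.18 (-0.48 to 0.12), and without scaling Mvk and Fdps lay at 0.29 and 0.57. The decarboxylase Mvd differed by 0.07 (-0.39 to 0.53), with overlapping groups.

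Limma called 0 of the 6 regulators and transport genes, against 27.3% of all genes. At an unadjusted p under 0.05, 2 were higher and 0 lower, where 3380 and 4127 of all 17568 genes were. Insig1, which retains SCAP in the endoplasmic reticulum and is itself a textbook SREBP target, read 5.87 and 6.33 without Epo and 6.76 and 6.91 with Epo. The arrays with Epo were both higher, by 0.73 ± 0.19 (SE) with an adjusted p of 0.054. It passed with the block (0.028), with quantile normalization (0.85, 0.047) and on dropping control replicate 2 (0.96, 0.028). With the normexp background the difference was 0.24 (0.155), and on dropping control replicate 1 it was 0.50 (0.108). Stard4, a carrier of cholesterol between membranes, read 11.56 and 11.20 without Epo and 12.07 and 11.84 with Epo. Its difference of 0.58 ± 0.18 (SE) had an adjusted p of 0.078. It passed with the block (0.023), with the normexp background (0.67, 0.016), with probes averaged (0.63, 0.022) and on dropping control replicate 1 (0.76, 0.0498). Dropping control replicate 2 gave 0.39 (0.217), and dropping Epo replicate 1 or 2 gave 0.46 (0.273) and 0.69 (0.122). Srebf1 and Srebf2 each differed by -0.17, with intervals from -0.50 to 0.15 and from -0.83 to 0.49, and each lay at 0.57 without scaling. Scap and Insig2 differed by 0.24 (-0.06 to 0.54) and 0.17 (-0.15 to 0.50). These arrays read transcript levels, whereas the SREBP proteins are controlled by cleavage, which was not measured.

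Among the fatty acid genes Fasn rose and the desaturase genes fell, while Acaca and Elovl6 did not pass. Of 6 tested, 1 rose (16.7%) and 3 fell (50%), against 13.1% and 14.2% of all genes, with a median of -0.23. The desaturases were set apart from the other enzymes after their values were seen. Fasn read 8.02 and 8.32 without Epo and 9.95 and 10.13 with Epo, the lowest array with Epo standing above the highest without by more than the spread within either group. Before scaling its processed intensity was 189 and 260 units without Epo and 1118 and 1662 with Epo. The rise of 1.87 ± 0.16 (SE) had an adjusted p of 0.0058 and ran from 1.72 to 2.02 when any array was left out. Its single probe lies at chr11:120667666-120667725 in mm9. Acaca, acetyl-CoA carboxylase, which supplies the building block to Fasn, read 12.23 and 12.27 without Epo and 12.31 and 12.28 with Epo. The difference of 0.05 had an interval from -0.24 to 0.34 and lay at -0.08 with the percentile over detected probes. Elovl6, which lengthens the product of Fasn, read 10.99 and 10.86 without Epo and 11.26 and 11.38 with Epo, a difference of 0.40 ± 0.12 (SE) with an adjusted p of 0.079. With the normexp background it passed, at 0.44 (adjusted p 0.032).

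All 3 desaturase genes that could be tested fell relative to the other genes, although each lay above 0 without scaling. Fads1, a desaturase of polyunsaturated fatty acids, read 10.86 and 10.84 without Epo and 10.09 and 10.20 with Epo. It fell by 0.70 ± 0.12 (SE, adjusted p 0.018), against 0.045 without scaling. Fads2, the desaturase that acts earlier in the same route, read 9.22 and 8.93 without Epo and 8.53 and 8.44 with Epo. It fell by 0.59 ± 0.15 (SE, adjusted p 0.048), against 0.16 without scaling. Scd2, a stearoyl-CoA desaturase, read 13.31 and 13.32 without Epo and 12.75 and 12.88 with Epo. It fell by 0.50 ± 0.12 (SE, adjusted p 0.042), against 0.25 without scaling. The call of Fads1 was lost on dropping control replicate 2 (-0.71, adjusted p 0.053), Epo replicate 1 (-0.65, 0.101) or Epo replicate 2 (-0.75, 0.068). That of Fads2 was lost on dropping control replicate 1 (-0.45, adjusted p 0.129), Epo replicate 1 (-0.63, 0.136) or Epo replicate 2 (-0.55, 0.176). That of Scd2 was lost without any of the 4 arrays, with an adjusted p from 0.105 to 0.235 and changes from -0.57 to -0.43, and with the normexp background (-0.36, 0.060). These genes sit on the same chromosome, with probes in mm9 at chr19:10270530-10270589 for Fads1, chr19:10137760-10137819 for Fads2 and chr19:44381024-44381083 for Scd2. Scd1, which lies near Scd2 with its probe at chr19:44469387-44469446, gave 2.34 and 2.31 log2 units without Epo and 1.93 and 1.01 with Epo, all not well above background.

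Several genes were read by more than 1 probe, and whether the probes of a gene read the same transcript was not checked. For 11 genes 2 probes were well above background, and in 8 of these the probes moved the same way. Fitted over all 23734 such probes, of which limma called 25.9%, it called 13 of the 42 probes of these genes. The second Hsd17b7 probe rose by 1.41 ± 0.20 (SE, adjusted p 0.014), with 7.10 and 6.61 without Epo against 8.23 and 8.30 with Epo, and so did not differ in direction from the first. In this fit the probes that stand for Fads2 and Pmvk did not pass, with adjusted p of 0.052 and 0.054. The second Fads2 probe fell by 0.85 ± 0.18 (SE, adjusted p 0.032), and the second Stard4 probe rose by 0.69 ± 0.13 (SE, adjusted p 0.025) where the first had an adjusted p of 0.082. Acaca gave the widest split. The probe that starts at transcript base 8971 differed by 0.05, whereas the one that starts at base 81 (chr11:84009021-84009080, mm9) read 7.08 and 6.93 without Epo and 5.60 and 5.95 with Epo. That probe, listed near the start of its transcript, fell by 1.23 ± 0.17 (SE, adjusted p 0.013), and averaged over its probes Acaca fell by 0.59 (adjusted p 0.029). The 2 Srebf2 probes gave -0.17 ± 0.25 (SE) and 0.86 ± 0.46 (SE), neither past the threshold, and the 2 Nsdhl probes gave 0.006 and -0.13. The second Pmvk probe gave -0.13 ± 0.18 (SE), and the averaged value of Pmvk had an adjusted p of 0.151.

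**Figure D4:**
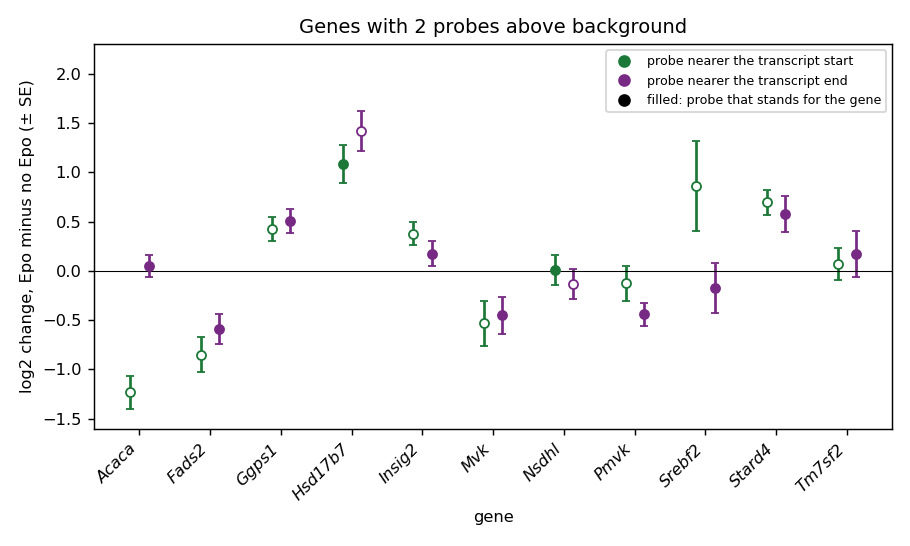
Log2 change with Epo (y axis, ± SE, 2 arrays a group) for each of the 2 probes of 11 genes (x axis). By listed transcript position, green is the probe nearer the start and purple the one nearer the end, though the 2 may read different transcripts. Filled points are the probes that stand for the gene. The 2 Acaca probes lie at -1.23 and 0.05, and both Hsd17b7 probes lie above 1.

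Set side by side, 5 of 19 sterol pathway enzymes rose (26.3%) and 2 fell (10.5%), whereas 1 of 6 fatty acid enzymes rose and 3 fell. The 19 include Ggps1, which rose and leads away from sterols. Of all genes 13.1% rose and 14.2% fell. The medians of the sterol pathway and fatty acid enzymes were 0.17 and -0.23, against -0.06 for all genes. Within replicate number 1 the medians were 0.19 and -0.24, and within replicate number 2 they were 0.22 and -0.21. The difference between the groups of enzymes was not tested, and it does not describe Fasn, the gene with the largest rise. Under each of the 11 alternative settings the sterol median lay above that of all genes, by 0.18 to 0.62, and the fatty acid median lay below it, by 0.019 to 0.49. Some of these settings could not alter the gaps. No scaling and the percentile over detected probes shift all genes of an array alike, and the block leaves each change as it was. The gaps there are fixed at those reported, 0.233 and -0.163. The widest sterol gap, 0.62, came with dim probes kept. There the sterol median stayed at 0.17, and the median of all 36408 genes, many of them not detected, was -0.45. Against 0 the fatty acid median turned, to 0.52, without scaling, where the median of all genes was 0.68.

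**Figure D5:**
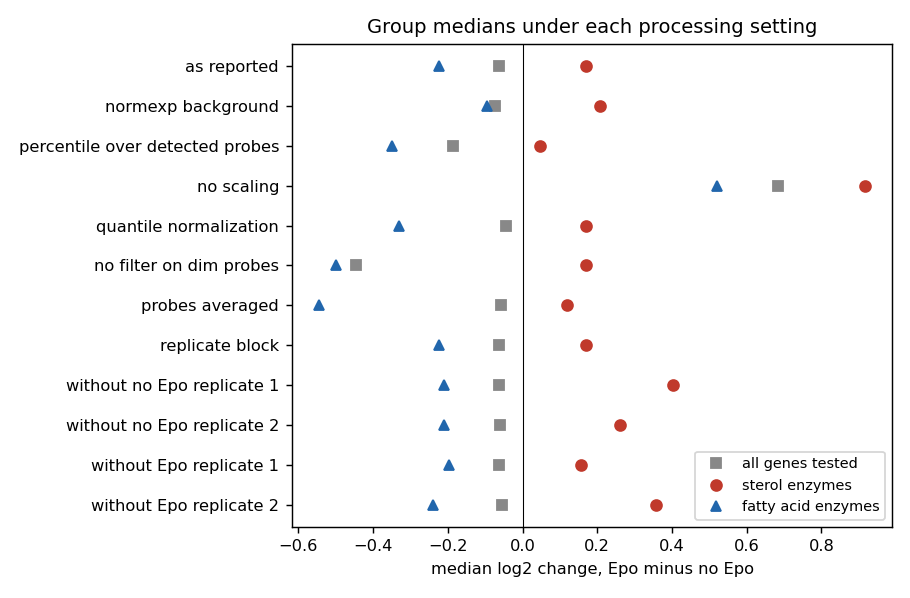
Median log2 change with Epo (x axis) of 19 sterol pathway enzymes (red circles), 6 fatty acid enzymes (blue triangles) and all genes tested (grey squares) under each processing setting (y axis). The fatty acid list holds 7 genes where dim probes are kept. Without scaling all 3 medians move to the right by the same amount, to 0.92, 0.52 and 0.68, so their order cannot change.

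Among 35 other genes of lipid synthesis and its control, 32 could be tested, with a median of -0.01. Of these 3 rose (9.38%) and 2 fell (6.25%), against 13.1% and 14.2% of all genes. The rises were those of the elongases Elovl7 (1.09 ± 0.13, SE, adjusted p 0.010) and Elovl1 (0.80 ± 0.11, adjusted p 0.013) and of Gpam (0.87 ± 0.12, adjusted p 0.013), which starts glycerolipid synthesis. Lpin1, a phosphatidate phosphatase, fell by 1.02 ± 0.12 (SE, adjusted p 0.0094) and Dgat1, an enzyme of triglyceride synthesis, by 0.89 ± 0.20 (adjusted p 0.036).

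The labelled line was checked against markers of cell types. Of 10 myeloid progenitor markers 9, all but Kit, were detected, with Mpo, Elane and Prtn3 among them and only Cebpa lower with Epo. Their summed scaled signal was 187000 and 191000 without Epo and 157000 and 168000 with Epo. Ctsg, the brightest of them, weighed most in this sum and was not called (-0.25, adjusted p 0.19 by limma). Of 7 fibroblast and adipocyte markers only Plin1, the coat protein of lipid droplets, was detected, on both arrays with Epo and on neither without. The sum of these markers was 73.8 and 88.7 without Epo and 151 and 52.1 with Epo, and Adipoq, Lep and Fabp4 were not well above background on both arrays of either group. Of 8 erythroid markers 5 were detected and 1, Gata1, fell (-0.68, adjusted p 0.023 by limma). The summed erythroid signal was 11800 and 13600 without Epo and 8340 and 8490 with Epo. Of 6 macrophage markers 4 were detected, 1 higher and 1 lower, and of 7 lymphoid markers 3 were detected and 3 fell. The summed lymphoid signal moved from 1640 and 1420 to 806 and 840, and its part in the results above was not tested.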

How the data were processed

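Total RNA of 4 cultures was labelled with Cy3 and hybridised to single-colour Agilent mouse arrays on the same slide. Per the file headers, the authors ran Feature Extraction 10.1.1.1, which made the deposited processed intensity of 62976 spots by background and spatial correction. Raw mean and local background intensities stand beside it, and nothing was scaled between arrays. Limma is listed in the submitters' processing notes, with no role.

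Processed intensities were put on the log2 scale, and each array's 75th percentile over 59305 non-control spots was set to the common mean. Outlier spots were left out (9 probes), no spot was saturated, and repeated spots were averaged. A probe was kept where 1 group or both had it well above background on each of their arrays. A gene, named as in the files, was its kept probe with the highest mean. The groups were compared in R 4.3.3 by lmFit and eBayes of limma 3.58.1, two-sided, with 4.57 total degrees of freedom. Benjamini-Hochberg adjustment ran over all 17568 genes, with a threshold of 0.05. The steps were tested on simulated data. The median SE was 0.145.

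The design text speaks of 2 experiments, so replicate numbers were read as pairs, although the labels do not say which array came from which experiment. Over all genes, deviations of same-numbered arrays from their groups correlated at 0.387, where genes are no replicates. The block fit has 1 residual degree of freedom. All members on the array were named, and of the other lipid genes at most the 4 largest called rises and falls. Members and lists were chosen with earlier results of these data known. Alternatives covered background, scaling, filter, probes, block and leaving out arrays.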

Additional observations from a re-analysis of the deposited data

How the results depend on the processing

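With 2 arrays a group, 4 of the 11 calls (Fasn, Cyp51, Msmo1 and Acat2) held in all 4 fits that left out an array. Counts of genes of these pathways called higher and lower, 6 and 5 as reported, were 11 and 3 with the normexp background, 21 and 0 without scaling (0 lower also at an unadjusted p under 0.05 by limma) and 12 higher with the replicate block, which ended no call. Leaving out 1 array gave 3 to 6 higher and 1 to 2 lower. When dim probes were kept, limma called 0 and 0 of 32 genes, and 0 of 36408 genes in all, with 7 and 4 of the 32 and 7157 of all at an unadjusted p under 0.05. The cause was not tested.

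The median of the sterol pathway enzymes, 0.17, was 0.21 with normexp, 0.046 with the percentile over detected probes, 0.92 without scaling and 0.12 with probes averaged. That of the fatty acid enzymes, -0.23, was -0.094 with normexp, -0.35 over detected probes, 0.52 without scaling, -0.33 with quantile normalization, -0.499 without the filter and -0.545 with probes averaged. Leaving out 1 array gave 0.16 to 0.40 and -0.241 to -0.197. Without scaling the sign turned for Mvk (0.29), Pmvk (0.30), Fdps (0.57), Fdft1 (0.47), Srebf1 (0.57), Srebf2 (0.57), Scd2 (0.25), Fads1 (0.045) and Fads2 (0.16). With the percentile over detected probes it turned for Mvd (-0.059), Nsdhl (-0.119), Ebp (-0.031), Dhcr7 (-0.061) and Acaca (-0.076). Quantile normalization turned Mvd (-0.017), Nsdhl (-0.036) and Acaca (-0.066), and averaging probes turned Nsdhl (-0.063), Srebf2 (0.34) and Acaca (-0.59, adjusted p 0.029). With 1 array left out Mvd ran from -0.127 to 0.26, Nsdhl from -0.14 to 0.153, Tm7sf2 from -0.067 to 0.41, Dhcr7 from -0.028 to 0.157 and Srebf2 from -0.48 to 0.135. Apart from Acaca with averaged probes, no gene whose sign turned passed the threshold under that setting.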
